A study of Homo sapiens with 4 samples.

Results

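The genes described here are 7 matrix metalloproteinases (MMP1, MMP2, MMP3, MMP7, MMP9, MMP14 and MMP15) and 3 tissue inhibitors of metalloproteinases (TIMP1, TIMP2 and TIMP3). They are 10 of the 58884 gene IDs in the deposited expression table, and each was found by its symbol. They were chosen by their TPM values in all 4 libraries, for the balance of protease to inhibitor by cell line and temperature, with TIMP3 taken for standing at 0 in TPC-1. Their levels and differences are therefore a description and carry no test. Polyadenylated RNA was sequenced from B-CPAP and TPC-1, both established human lines of papillary thyroid carcinoma, to ask how transient thermal stress alters thyroid cancer cells. Flasks of each line were held at 40 °C or at 37 °C, and each of the 4 groups (B-CPAP at 40 °C, B-CPAP at 37 °C, TPC-1 at 40 °C and TPC-1 at 37 °C) has 1 library. The labels give the time submerged as 15 min, as 20 min and as 24 h, so its length is not settled here. No genotype, transgene or drug is given for any group, and each line stands for 1 tumour only.

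Matrix metalloproteinases are zinc-dependent endopeptidases that cut collagens, gelatins, laminins, proteoglycans and many cell-surface proteins. Most are secreted as inactive zymogens, while the membrane-type enzymes MMP14 and MMP15 reach the surface already cleaved by furin-like convertases and can activate others there. TIMPs bind the active site of these proteases and block it, and TIMP2 also bridges MMP14 to the zymogen of MMP2, which is how MMP2 is activated at the cell surface. In carcinomas the proteases are known for the breakdown of basement membrane during invasion, and much of the MMP protein in a tumour comes from stromal cells, which a cell line lacks.

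Values are TPM, transcript abundances corrected for both gene length and library total, so that levels of different genes can be set side by side. TPM keeps no depth, but low values times exon length came mostly in steps of whole reads. These steps gave an estimated 20704722 to 24466576 reads per library. Ratios between libraries are ratios of TPM and carry exact (Clopper-Pearson) 95% intervals from these reads. The intervals cover counting error only and compare 2 libraries, not 2 conditions. Of the thyroid markers, the transcription factor PAX8 was at 98.9 to 284.4 TPM, 3 of 7 markers reached 1 TPM in some library, and the differentiation gene SLC5A5 was listed at 0 in all 4. NKX2-1, another thyroid transcription factor, was at 7.90 (40 °C) and 8.60 TPM (37 °C) in B-CPAP and was listed at 0 in both TPC-1 libraries. The 5 immune markers summed to 1.60 TPM (40 °C) and 2.19 TPM (37 °C) in B-CPAP and to 3.72 and 3.23 TPM in TPC-1; PTPRC and CD3E were listed at 0 throughout, while CSF1R was at 1.17 to 2.50 TPM and CD14 reached 1.37 TPM. Mitochondrially encoded genes took 23.9% of TPM at 40 °C and 22.0% at 37 °C in B-CPAP, and 19.9% at 40 °C and 16.8% at 37 °C in TPC-1, which lowers the TPM of every other gene in proportion.

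Promoters from RefSeq (GRCh38.p14) matched 5 of the 10 genes. The stretches of 3 are shown because these genes stand at opposite ends of the levels below: MMP14 and TIMP3 are abundant in at least 1 line, and MMP7 is close to absent in both. Each run is the 250 bases before RefSeq's start of the gene, 5′ to 3′ on the gene's own strand. RefSeq's start differs from the GENCODE 29 start of the gene coordinates given further on, so that the last 28 bases for MMP14, 4 for TIMP3 and 6 for MMP7 lie inside the GENCODE gene. The runs carry capitals for every match to TGAGTCA (the AP-1 element), TATAAA (the TATA box) or GGGCGG (the GC box bound by SP1) on either strand.
MMP14, chr14:22836335-22836584, plus strand: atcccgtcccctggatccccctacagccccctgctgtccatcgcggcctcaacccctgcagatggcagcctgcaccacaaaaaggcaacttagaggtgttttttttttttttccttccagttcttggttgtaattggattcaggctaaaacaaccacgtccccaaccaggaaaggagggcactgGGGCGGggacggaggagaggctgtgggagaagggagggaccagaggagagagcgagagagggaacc
TIMP3, chr22:32801455-32801704, plus strand: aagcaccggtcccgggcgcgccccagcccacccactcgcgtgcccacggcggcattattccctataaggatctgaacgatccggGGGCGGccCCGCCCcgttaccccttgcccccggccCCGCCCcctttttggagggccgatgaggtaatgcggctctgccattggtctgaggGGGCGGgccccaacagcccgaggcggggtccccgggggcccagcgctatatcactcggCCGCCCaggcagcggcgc
MMP7, chr11:102530748-102530997, minus strand: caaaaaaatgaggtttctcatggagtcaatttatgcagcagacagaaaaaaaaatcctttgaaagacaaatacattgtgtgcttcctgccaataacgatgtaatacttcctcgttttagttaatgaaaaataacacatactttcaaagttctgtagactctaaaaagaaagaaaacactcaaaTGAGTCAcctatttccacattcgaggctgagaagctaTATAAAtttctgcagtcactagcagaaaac
The 3 motifs were searched in 300 bases, 250 before and 50 after RefSeq's start, and do not overlap one another in these genes. Among all 34943 promoters of that length, 44.9% held GGGCGG, 11.6% TATAAA and 4.96% TGAGTCA. TIMP3 had 5 matches to GGGCGG, TIMP1 had 2 and MMP14 had 1, at position -66. MMP15 had 5; the runs of MMP15 and TIMP1 are not printed. MMP7 alone of the 5 matched genes had TGAGTCA, at position -67, and TATAAA, at position -30, and it had no GGGCGG. CG dinucleotides numbered 31 in the window of TIMP3, 39 in that of MMP15, 16 in that of TIMP1, 10 in that of MMP14 and 4 in that of MMP7, against a median of 14 over all promoters. A match describes these letters and not a bound site.

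The most abundant protease was MMP14 (ENSG00000157227, chromosome 14, 22836557 to 22849027), the membrane-type collagenase that activates MMP2. MMP14 stood at 472.9 (40 °C) and 508.0 TPM (37 °C) in B-CPAP, and at 1013.6 (40 °C) and 1121.5 TPM (37 °C) in TPC-1. Both TPC-1 libraries lay above both B-CPAP libraries, and within each line the 40 °C library lay below the 37 °C library. The level in B-CPAP was 0.467 times that in TPC-1 at 40 °C (interval 0.457 to 0.476) and 0.453 times at 37 °C (interval 0.444 to 0.462). In bulk RNA of a culture, fewer expressing cells and less RNA per cell cannot be told apart, for this gene or any below. By level among protein-coding genes, MMP14 ranked 220 and 217 in B-CPAP at 40 °C and 37 °C, and 95 and 89 in TPC-1.

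MMP2 (ENSG00000087245, chromosome 16, 55389700 to 55506691), gelatinase A, was the next most abundant protease in all 4 libraries. Its level was 58.9 (40 °C) and 62.1 TPM (37 °C) in B-CPAP, and 175.3 (40 °C) and 185.9 TPM (37 °C) in TPC-1. The lines did not overlap, and B-CPAP had 0.336 times the level of TPC-1 at 40 °C (interval 0.319 to 0.354) and 0.334 times at 37 °C (interval 0.318 to 0.351). MMP14 and its substrate MMP2 were thus both lower in B-CPAP, while the level of MMP2 relative to MMP14 was 12.5% at 40 °C and 12.2% at 37 °C in B-CPAP, and 17.3% and 16.6% in TPC-1.

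MMP9 (ENSG00000100985, chromosome 20, 46008908 to 46016561), gelatinase B, was found in TPC-1 and was near the limit of detection in B-CPAP. It was listed at 0.06 TPM at 40 °C and at 37 °C in B-CPAP, which is 1 read in each library, and at 11.4 (40 °C) and 13.7 TPM (37 °C) in TPC-1, from 154 and 193 reads. The ratio of B-CPAP to TPC-1 was 0.00536 at 40 °C (interval 0.000135 to 0.0303) and 0.0042 at 37 °C (interval 0.000106 to 0.0237). MMP2 and MMP9, both gelatinases, were therefore lower in the same line, B-CPAP, but MMP2 stayed well expressed there. Exons of MMP9 overlap SLC12A5-AS1 on the other strand, which was listed at 0.48 TPM or less in each library.

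MMP3 (ENSG00000149968, chromosome 11, 102835801 to 102843803), stromelysin-1, which cuts proteoglycans and activates the zymogens of MMP1 and MMP9, had the opposite pattern to MMP9. It stood at 12.9 (40 °C) and 12.7 TPM (37 °C) in B-CPAP, from 184 and 194 reads, and was listed at 0 in both TPC-1 libraries. No read in TPC-1 allows a level of up to 0.254 (40 °C) and 0.242 TPM (37 °C) (3 reads per library). For MMP3 the interval of B-CPAP over TPC-1 had a lower limit of 40.8 at 40 °C and of 42.2 at 37 °C.

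MMP1 (ENSG00000196611, chromosome 11, 102789920 to 102798160), the interstitial collagenase, was low in both lines. It was at 4.28 (40 °C) and 2.92 TPM (37 °C) in B-CPAP, and at 5.53 (40 °C) and 4.87 TPM (37 °C) in TPC-1, from 43 to 63 reads. The lowest TPC-1 library lay above the highest B-CPAP library, but at 40 °C the interval of the ratio of B-CPAP to TPC-1, 0.773 (0.533 to 1.12), included 1, and at 37 °C the ratio was 0.601 (0.395 to 0.907). MMP15 (ENSG00000102996, chromosome 16, 58025566 to 58046901), a second membrane-type enzyme, was also low, at 2.09 (40 °C) and 2.53 TPM (37 °C) in B-CPAP and 4.01 (40 °C) and 5.63 TPM (37 °C) in TPC-1. B-CPAP was below TPC-1 for MMP15 at both temperatures, with ratios of 0.522 at 40 °C (interval 0.379 to 0.725) and 0.450 at 37 °C (interval 0.343 to 0.597). MMP7 (ENSG00000137673, chromosome 11, 102520508 to 102530753), matrilysin, an enzyme of glandular epithelium, was listed at 0 in both B-CPAP libraries and in TPC-1 at 40 °C, and at 0.07 TPM in TPC-1 at 37 °C, which is 1 read. A count of 0 allows 0.173 to 0.224 TPM for MMP7 in the 3 libraries without a read.

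MMP1, MMP3 and MMP7 lie with 6 other MMP genes in 435.0 kb of chromosome 11 (102520508 to 102955734). MMP20, MMP27 and MMP8 of this cluster were listed at 0 in all 4 libraries. MMP10, a second stromelysin, was at 0.65 (40 °C) and 0.61 TPM (37 °C) in B-CPAP, and was listed at 0 at 40 °C and at 0.09 TPM at 37 °C in TPC-1. MMP12 and MMP13 reached at most 0.21 TPM in B-CPAP and were listed at 0 in TPC-1. Of the cluster, MMP1 was the only gene above 0.09 TPM in TPC-1, and it lies between MMP10 and MMP3. Exons of MMP1 and MMP3 overlap the pseudogene WTAPP1 on the other strand, which was listed at 0.21 TPM or less. Because the kit used leaves strand unmarked, reads from overlapping genes cannot be told apart.

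**Figure D1:**
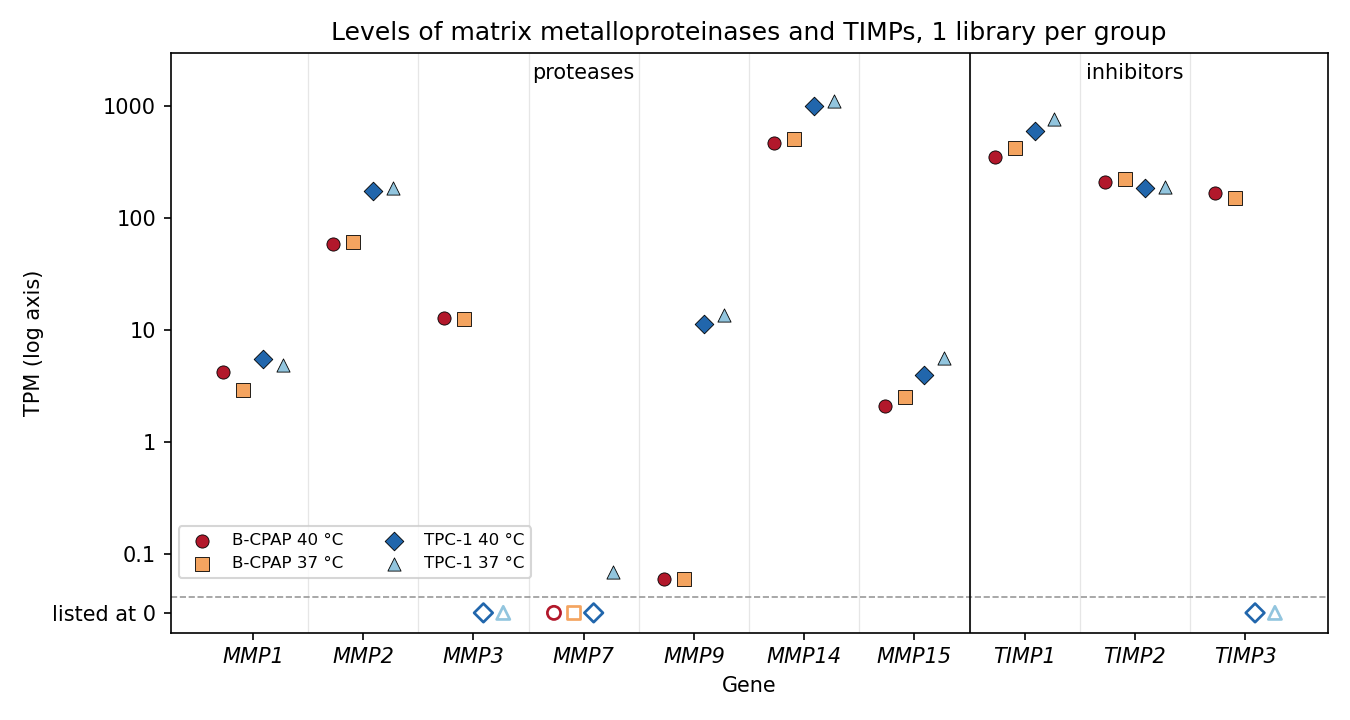
Level of each of the 10 genes in each of the 4 libraries, in TPM on a log axis, with proteases left of the line and inhibitors right of it; each point is 1 library, and open points at the foot are listed at 0. TIMP3 and MMP3 stand at 150.8 to 169.1 and 12.7 to 12.9 TPM in B-CPAP and at 0 in TPC-1, while MMP9 stands at 11.4 to 13.7 TPM in TPC-1 and at 0.06 TPM in B-CPAP.

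Among the inhibitors, TIMP1 (ENSG00000102265, chromosome X, 47582313 to 47586789), a soluble inhibitor that binds MMP9 tightly and blocks membrane-type enzymes poorly, had the highest level. TIMP1 stood at 351.7 (40 °C) and 422.2 TPM (37 °C) in B-CPAP, and at 607.4 (40 °C) and 778.7 TPM (37 °C) in TPC-1. B-CPAP lay below TPC-1, with ratios of 0.579 at 40 °C (interval 0.555 to 0.604) and 0.542 at 37 °C (interval 0.523 to 0.562), and in each line the 40 °C library was the lower. TIMP1 lies within SYN1 on the other strand; their exons do not overlap and SYN1 was listed at 0.43 TPM or less.

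TIMP2 (ENSG00000035862, chromosome 17, 78852977 to 78925387), the partner of MMP14 and MMP2, varied least between the lines. Its level was 212.4 (40 °C) and 225.1 TPM (37 °C) in B-CPAP, and 186.0 (40 °C) and 190.9 TPM (37 °C) in TPC-1. Both B-CPAP libraries lay above both TPC-1 libraries, with ratios of 1.14 at 40 °C (interval 1.10 to 1.18) and 1.18 at 37 °C (interval 1.14 to 1.22). Exons of TIMP2 overlap CEP295NL on the same strand, which was listed at 0.83 TPM or less.

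TIMP3 (ENSG00000100234, chromosome 22, 32801701 to 32863043) is the inhibitor that stays bound to the extracellular matrix and also blocks some ADAM and ADAMTS proteases. It stood at 169.1 (40 °C) and 150.8 TPM (37 °C) in B-CPAP, from 5445 and 5178 reads, and no read was found in either TPC-1 library. A count of 0 allows up to 0.113 (40 °C) and 0.108 TPM (37 °C) in TPC-1. For TIMP3 the interval of B-CPAP over TPC-1 had a lower limit of 1220 at 40 °C and of 1140 at 37 °C. TIMP3 was not alone in this pattern. Of the protein-coding genes listed at 0 in both TPC-1 libraries, 298 averaged at least 1 TPM in B-CPAP, 70 at least 10 TPM and 11 at least 100 TPM, and TIMP3 ranked 5 among them by level while MMP3 ranked 59. In the other direction, 83 genes listed at 0 in both B-CPAP libraries averaged at least 1 TPM in TPC-1 and 10 at least 10 TPM.

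Of 13 protein-coding genes within 1000 kb of TIMP3, 4 had at least 1 TPM in both B-CPAP libraries and 5 in both TPC-1 libraries, and 4 were listed at 0 in both TPC-1 libraries, 3 of them in B-CPAP too. FBXO7, a ubiquitin ligase subunit, was at 54.3 (40 °C) and 59.7 TPM (37 °C) in B-CPAP, and at 48.8 (40 °C) and 53.0 TPM (37 °C) in TPC-1. RTCB, the tRNA ligase, was at 236.7 and 250.3 TPM in B-CPAP and at 128.3 and 131.5 TPM in TPC-1 at 40 °C and 37 °C. SYN3, which encloses TIMP3 on the other strand without sharing exons, was at 0.26 (40 °C) and 0.42 TPM (37 °C) in B-CPAP and was listed at 0 in TPC-1, as TIMP3 was. These 3 were picked after their values were seen.

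Fibroblast markers moved with MMP3 and TIMP3, both of which fibroblasts also make. Their summed level was 46.7 (40 °C) and 38.0 TPM (37 °C) in B-CPAP, against 9.56 (40 °C) and 9.14 TPM (37 °C) in TPC-1. COL3A1, LUM and DCN were listed at 0 in both TPC-1 libraries and COL1A2 was at 0.02 TPM or less there, while 5 of the 6 markers reached 1 TPM in some library. PDGFRB went the other way, at 4.65 and 4.15 TPM in B-CPAP and 6.72 and 6.19 TPM in TPC-1. The part of these markers in the differences of MMP3 and TIMP3 was not tested.

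Seen over the members, counting intervals of B-CPAP over TPC-1 at 40 °C lay above 1 for 3 genes (MMP3, TIMP2 and TIMP3) and below 1 for 5 (MMP2, MMP9, MMP14, MMP15 and TIMP1), where 37.9% of 14898 genes lay above and 39.2% below. At 37 °C the same genes lay above 1 and MMP1 joined those below, where 35.3% of genes lay above and 42.0% below. These values chose the members, so nothing is read from the counts.

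The balance of the summed proteases to the summed inhibitors lay on opposite sides of 1 in the lines. The 7 proteases summed to 551.1 (40 °C) and 588.3 TPM (37 °C) in B-CPAP, and to 1209.9 (40 °C) and 1331.7 TPM (37 °C) in TPC-1. The 3 inhibitors summed to 733.2 (40 °C) and 798.0 TPM (37 °C) in B-CPAP, and to 793.4 (40 °C) and 969.6 TPM (37 °C) in TPC-1. The ratio of proteases to inhibitors was thus 0.752 at 40 °C and 0.737 at 37 °C in B-CPAP, and 1.525 at 40 °C and 1.373 at 37 °C in TPC-1. The counting intervals of these ratios of sums were not exact but from a normal approximation on the log scale. They were 0.734 to 0.769 and 0.721 to 0.754 in B-CPAP, and 1.489 to 1.562 and 1.344 to 1.404 in TPC-1, so the lines did not overlap. The side of 1 rested on the most abundant gene of each kind: without TIMP1 the ratios were 1.445 and 1.565 in B-CPAP and 6.505 and 6.977 in TPC-1, and without MMP14 they were 0.107 and 0.101 in B-CPAP and 0.247 and 0.217 in TPC-1, with B-CPAP the lower each time. The ratio in B-CPAP was 0.493 times that in TPC-1 at 40 °C and 0.537 times at 37 °C. This is a balance of transcripts, in which zymogen activation and protein levels were not measured.

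A single gene dominated each sum of the balance. MMP14 made up 85.8% and 86.3% of the summed proteases in B-CPAP at 40 °C and 37 °C, and 83.8% and 84.2% in TPC-1. TIMP1 made up 48.0% and 52.9% of the summed inhibitors in B-CPAP, and 76.6% and 80.3% in TPC-1. TIMP3 supplied 23.1% of the inhibitors at 40 °C and 18.9% at 37 °C in B-CPAP and none in TPC-1, and TIMP2 supplied the remainder. In B-CPAP at 37 °C the side of 1 depended on the unit, since MMP14 has a longer exon length than TIMP1 (4464 against 1541 bases): with estimated reads in place of TPM the ratio was 0.972 at 40 °C and 1.002 at 37 °C in B-CPAP, and 2.745 and 2.633 in TPC-1.

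**Figure D2:**
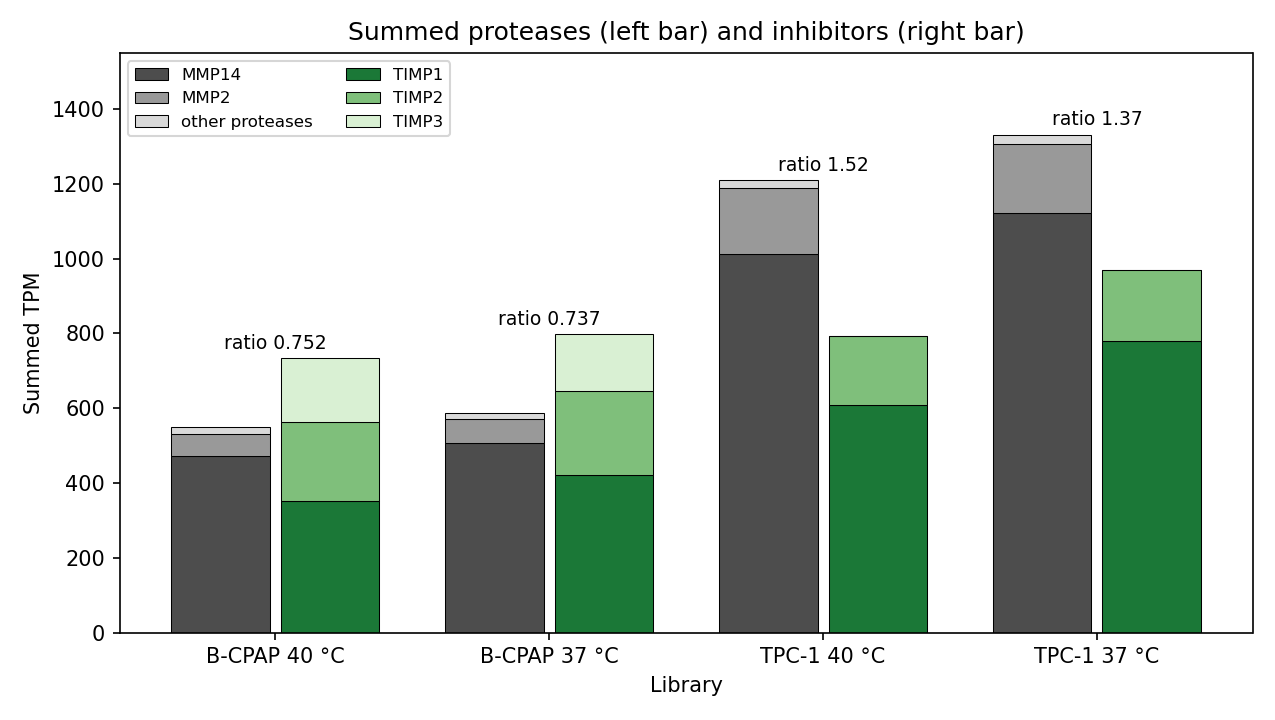
Summed TPM of the 7 proteases (left bar of each pair) and of the 3 inhibitors (right bar) in each library, split by gene; the number over each pair is proteases over inhibitors. The inhibitor bar is the taller in both B-CPAP libraries (ratios 0.752 and 0.737) and the protease bar in both TPC-1 libraries (ratios 1.52 and 1.37), with MMP14 as the main part of every protease bar.

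Of the pairs of protease and inhibitor, those with MMP14, MMP2 or MMP9 were lower in B-CPAP, and MMP1 over TIMP1 was not. MMP14 over TIMP2 was 2.23 at 40 °C and 2.26 at 37 °C in B-CPAP, and 5.45 at 40 °C and 5.88 at 37 °C in TPC-1. MMP2 over TIMP2 was 0.277 and 0.276 in B-CPAP, and 0.943 and 0.974 in TPC-1. MMP9 came to 0.0174% and 0.0136% of the level of TIMP1 in B-CPAP, and to 1.88% and 1.75% in TPC-1. In each of these pairs both TPC-1 libraries exceeded both B-CPAP libraries, while MMP14 over TIMP1 differed less, at 1.34 and 1.20 in B-CPAP and 1.67 and 1.44 in TPC-1. MMP1 over TIMP1 overlapped between the lines and was higher in B-CPAP at each temperature, at 1.22% and 0.693% in B-CPAP and 0.911% and 0.625% in TPC-1.

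Between temperatures no member was 2-fold apart in either line on the log2(TPM + 1) scale, where 3.90% of all 14912 genes that averaged 1 TPM or more were in B-CPAP (2.78% higher and 1.13% lower at 40 °C) and 3.48% in TPC-1 (2.25% higher and 1.23% lower). Among the members with at least 10 reads in both libraries, 5 of 8 in B-CPAP and 6 of 7 in TPC-1 were lower at 40 °C by any size, where 40.1% and 42.5% of all tested genes were lower and 58.2% and 54.3% higher. The median log2 difference of these members was -0.08 in B-CPAP and -0.15 in TPC-1, beside 0.09 and 0.03 over all tested genes. In B-CPAP 3 of the 8 were lower after adjustment for transcript GC content, 7 after centring on the median and 6 after quantile normalization; in TPC-1 6 of the 7 were lower under each of these. These members passed a read minimum and were named for these values, so nothing is read from the counts.

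TIMP1 and MMP14 were the 2 members whose intervals of 40 °C over 37 °C lay below 1 in both lines. TIMP1 at 40 °C was 0.833 times its 37 °C level in B-CPAP (interval 0.798 to 0.870) and 0.780 times in TPC-1 (interval 0.753 to 0.808). TIMP1 was lower at 40 °C in both lines under every scaling tried, with log2 differences of -0.45 to -0.08 in B-CPAP and -0.45 to -0.26 in TPC-1. MMP15 had a ratio of 0.827 in B-CPAP, where the interval of 0.588 to 1.15 included 1, and 0.712 in TPC-1 (interval 0.548 to 0.922).

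MMP14 at 40 °C was 0.931 times its 37 °C level in B-CPAP (interval 0.911 to 0.952) and 0.904 times in TPC-1 (interval 0.889 to 0.919). MMP2 was at 0.948 times (interval 0.893 to 1.01) in B-CPAP and 0.943 times (interval 0.908 to 0.980) in TPC-1. For MMP14, MMP2 and MMP15 the direction in B-CPAP turned when differences were adjusted for GC content, to log2 values of 0.10, 0.04 and 0.17, while in TPC-1 it stayed negative. TIMP2 had ratios of 0.943 in B-CPAP (interval 0.916 to 0.971) and 0.975 in TPC-1 (interval 0.941 to 1.01), and without mitochondrially encoded genes its log2 difference in TPC-1 was 0.02. MMP9 in TPC-1 had a ratio of 0.835, with an interval of 0.671 to 1.04 that included 1.

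TIMP3 and MMP1 were the members above 1 by more than 1.1-fold in a line. TIMP3 had a ratio of 1.12 in B-CPAP (interval 1.08 to 1.17), but its log2 difference was -0.02 when libraries were centred on their median and 0.03 after GC adjustment. MMP1 had ratios of 1.46 in B-CPAP (interval 0.971 to 2.22) and 1.14 in TPC-1 (interval 0.783 to 1.65), and both intervals included 1. MMP3 had a ratio of 1.01 in B-CPAP (interval 0.822 to 1.24), with log2 differences of -0.17 after centring, -0.16 after quantile normalization and -0.28 after GC adjustment. Intervals excluded 1 on the low side for 21.8% of 14898 genes in B-CPAP and 16.1% in TPC-1, and on the high side for 36.4% and 21.5%. In B-CPAP the intervals of 3 members (MMP14, TIMP1 and TIMP2) lay below 1 and that of TIMP3 above it, and in TPC-1 those of MMP2, MMP14, MMP15 and TIMP1 lay below 1.

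Across 11819 protein-coding genes the temperature difference fell with transcript GC content, with a Spearman correlation of -0.82 in B-CPAP and -0.60 in TPC-1. These genes share the same libraries, so the correlation is a description. The members spanned 42.0% (MMP7) to 65.3% (MMP15) GC, with MMP1 at 43.4%, MMP3 at 44.9%, TIMP3 at 48.7%, TIMP2 at 52.3%, MMP2 at 55.8%, TIMP1 at 58.0%, MMP14 at 58.8% and MMP9 at 62.4%. The part of GC content in the members' ratios was not tested. After adjustment the log2 difference of TIMP1 was -0.08 in B-CPAP, against -0.26 before it, and -0.26 in TPC-1, against -0.36 before it. MMP1 then had 0.06 in B-CPAP and 0.02 in TPC-1, and MMP14 in TPC-1 had -0.04. The balance of proteases to inhibitors at 40 °C was 1.02 times that at 37 °C in B-CPAP and 1.11 times in TPC-1, where the inhibitor sum was 0.818 times and the protease sum 0.909 times its 37 °C value.

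**Figure D3:**
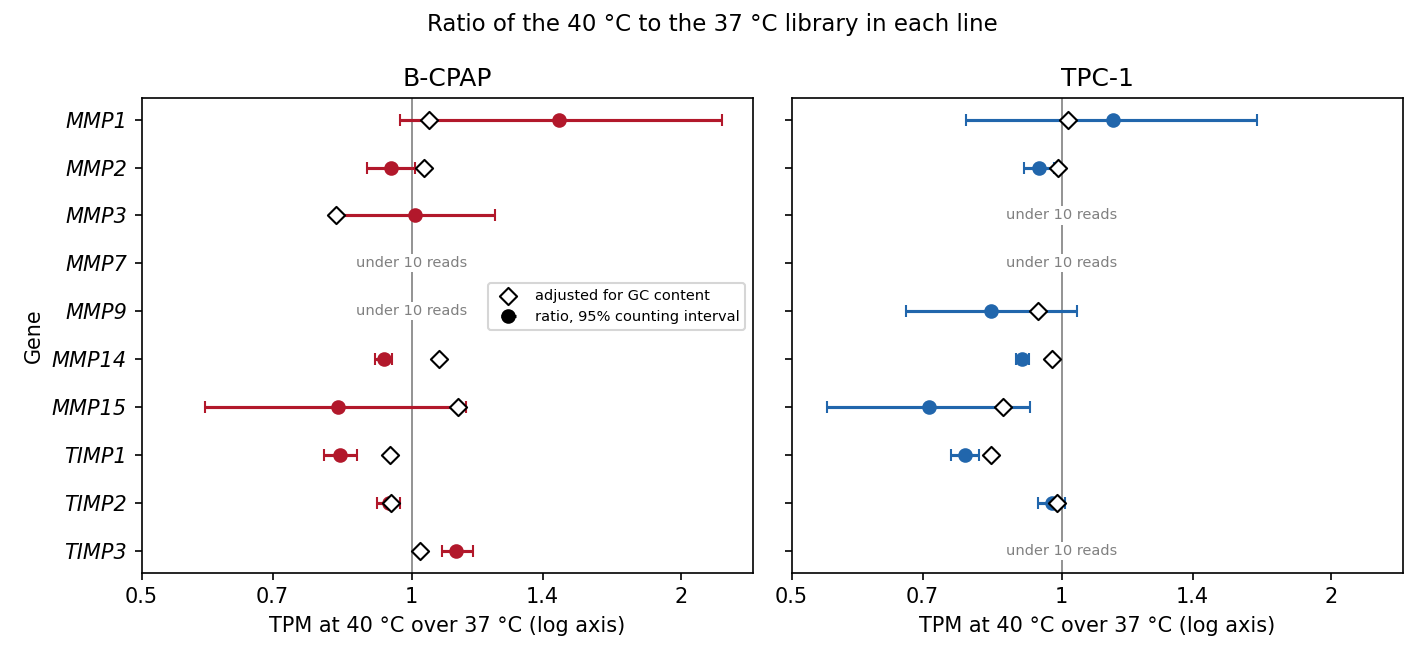
TPM at 40 °C over TPM at 37 °C for each gene in B-CPAP (left) and TPC-1 (right), on a log axis; filled points are the ratio with its 95% counting interval, open diamonds the ratio adjusted for GC content, and genes with under 10 reads in a library are left out. TIMP1 lies left of 1 in both lines by both measures, while MMP14, MMP2 and MMP15 cross 1 in B-CPAP after the adjustment.

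The rest of the system was followed in 113 other genes in 6 lists, of which 87 had a mean of at least 1 TPM. Genes near 0 in 1 line passed this mean only through the line where they are high. The counts and medians of a list therefore depend in part on this filter. B-CPAP was compared with TPC-1 by limma on log2(TPM + 1) over all 4 libraries with temperature as a block and Benjamini-Hochberg adjustment over 14912 genes. Of the 87, 76 were called at an adjusted p of 0.05, 24 higher and 52 lower in B-CPAP, where 62.7% of all genes and 65.6% of protein-coding genes were called (29.9% of all genes higher, 32.8% lower). Without TPC-1 at 40 °C 35 were called, without TPC-1 at 37 °C 38, and with no filter on low values 0. The repeats of a line are its temperatures, so these p-values set a line difference against how far the lines differ in their temperature response, not against separate cultures. With 1 residual degree of freedom, limma drew the spread of each gene strongly toward that of all tested genes at a similar level. Between temperatures the same fit, with line as the block, called 0 of the 87 and 0.0% of all 14912 genes; 21 and 2905 had an unadjusted p under 0.05, and the smallest adjusted p was 0.0871. None of the 87 was 2-fold apart between temperatures on this scale. The 0 depended on the genes fitted, since 1350 of 11824 were called when only protein-coding genes were fitted. On simulated data the temperature fit recovered 37.1% of 2-fold and 80.9% of 4-fold changes, so it misses many small ones.

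Of 16 other MMP genes 4 were tested, and 2 were called, both lower in B-CPAP. The median log2 difference of the 4 was -1.10, beside -0.05 over all genes. The 2 called genes passed the mean of 1 TPM only through TPC-1, so nothing is read from this count or median. MMP11 did not reach that mean and went the other way. It was at 0.42 (40 °C) and 0.34 TPM (37 °C) in B-CPAP and was listed at 0 in TPC-1. MMP17, a membrane-type enzyme anchored by a lipid tail, was at 0.25 (40 °C) and 0.37 TPM (37 °C) in B-CPAP and at 9.95 and 11.5 TPM in TPC-1, a log2 difference of -3.16. MMP28, epilysin, was listed at 0 in B-CPAP and was at 3.91 (40 °C) and 4.25 TPM (37 °C) in TPC-1. Its interval of B-CPAP over TPC-1 had an upper limit of 0.0482 at 40 °C and of 0.042 at 37 °C. Neither MMP16 nor MMP24, both membrane-type, passed the test between lines. MMP16 had the widest temperature ratio of the 4 tested genes, at 7.44 (40 °C) and 3.65 TPM (37 °C) in B-CPAP (ratio 2.04, interval 1.78 to 2.33) and 5.18 and 4.18 TPM in TPC-1 (ratio 1.24, interval 1.06 to 1.45). After GC adjustment its log2 difference was 0.27 in B-CPAP and 0.02 in TPC-1.

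Of 4 other inhibitors 3 were tested and 2 called, TFPI2 and TIMP4, both higher in B-CPAP. TIMP4 passed the mean of 1 TPM only through B-CPAP, so nothing is read from this count. TFPI2, a matrix-bound serine protease inhibitor of plasmin, was at 463.6 (40 °C) and 354.2 TPM (37 °C) in B-CPAP and at 6.80 and 5.14 TPM in TPC-1 (log2 difference 5.88, adjusted p = 1.93e-05, limma). TIMP4, the remaining member of the TIMP family, was at 10.3 (40 °C) and 9.76 TPM (37 °C) in B-CPAP. In TPC-1 it was at 0.14 TPM at 40 °C, which is 1 read, and 0 at 37 °C (log2 difference 3.37). RECK, a membrane-anchored inhibitor of MMP14, MMP2 and MMP9, did not pass the test, at 6.75 and 3.71 TPM in B-CPAP and 7.09 and 6.68 TPM in TPC-1, below TPC-1 at both temperatures.

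Of 18 genes of activation, the plasmin system and surface partners, 15 were tested and 14 called, 5 higher and 9 lower in B-CPAP (median -0.35). Over all genes 29.9% were called higher and 32.8% lower. Genes near 0 in TPC-1 passed the mean of 1 TPM only through B-CPAP, so nothing is read from this count, split or median. SERPINB2, an inhibitor of the urokinase-type plasminogen activator, was higher, at 16.4 and 19.5 TPM in B-CPAP against 0.13 and 0 TPM in TPC-1, as was THBS2, a matrix protein that clears MMP2, by 2.05 on the log2 scale. CD44, which docks MMP9 and MMP14 at the surface, was lower in B-CPAP by 1.59 on the log2 scale, at 298.0 and 295.8 TPM against 886.8 and 908.4 TPM in TPC-1. BSG, the surface protein that induces MMPs in neighbouring fibroblasts, was at 367.4 (40 °C) and 450.7 TPM (37 °C) in B-CPAP and at 634.8 and 818.1 TPM in TPC-1 (log2 difference -0.82, adjusted p = 0.000399, limma).

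Of 28 ADAM and ADAMTS proteases, some of which TIMP3 also inhibits, 21 were tested and 20 called. In B-CPAP 6 were higher and 14 lower (median of the tested genes -1.14), where 29.9% of all genes were higher and 32.8% lower. Genes near 0 in 1 line, such as ADAM8 and ADAMTS2, passed the mean of 1 TPM only through the other. Nothing is read from this count, split or median. ADAMTS2, which trims procollagen, and ADAMTS1 and ADAMTS5, which cut proteoglycans, were higher in B-CPAP, at 11.8 and 12.2, 140.6 and 124.6, and 8.90 and 7.31 TPM at 40 °C and 37 °C, against at most 0.06, 11.5 and 0.69 TPM in TPC-1. ADAM8, a membrane sheddase, was lower, at 0 (40 °C) and 0.14 TPM (37 °C) in B-CPAP and 11.2 and 9.82 TPM in TPC-1. The sheddases ADAM9 and ADAM10 had some of the wider temperature ratios in B-CPAP, 1.99 (interval 1.89 to 2.09) and 1.91 (interval 1.78 to 2.06), beside 1.21 (interval 1.16 to 1.27) and 1.18 (interval 1.12 to 1.24) in TPC-1. After GC adjustment their log2 differences were 0.40 and 0.38 in B-CPAP and 0.05 each in TPC-1.

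All 20 transcription factors known to act on MMP genes were tested and 16 called, 3 higher and 13 lower in B-CPAP (median -0.57). Over all genes 62.7% were called, 29.9% higher and 32.8% lower, with a median of -0.05. FOS passed the mean of 1 TPM only through TPC-1, so nothing is read from this count, split or median. RUNX2, which acts on the MMP13 promoter in bone, was at 18.0 (40 °C) and 14.5 TPM (37 °C) in B-CPAP and at 50.4 and 45.1 TPM in TPC-1 (log2 difference -1.50, adjusted p = 0.000367, limma). ETV5, an ETS factor, and NFKB1, a subunit of NF-kB, were lower in B-CPAP by 1.22 and 1.16 on the log2 scale, and EGR1, an immediate early factor, was higher by 1.34. Of 27 substrates 24 were tested and 22 called, 8 higher and 14 lower (median -0.84). COL3A1 and COL1A2 passed the mean of 1 TPM only through B-CPAP, so nothing is read from this count, split or median. The fibrillar collagens COL3A1 and COL1A2 were higher in B-CPAP, at 10.7 and 8.15 TPM and at 8.56 and 8.31 TPM at 40 °C and 37 °C, against 0.02 TPM or less in TPC-1; both are also among the fibroblast markers above. The laminin chains LAMB3 and LAMA5, of the basement membrane, were lower, at 57.2 and 74.8 TPM and at 5.61 and 6.09 TPM in B-CPAP against 928.6 and 1109.1 TPM and 60.4 and 59.0 TPM in TPC-1.

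**Figure D4:**
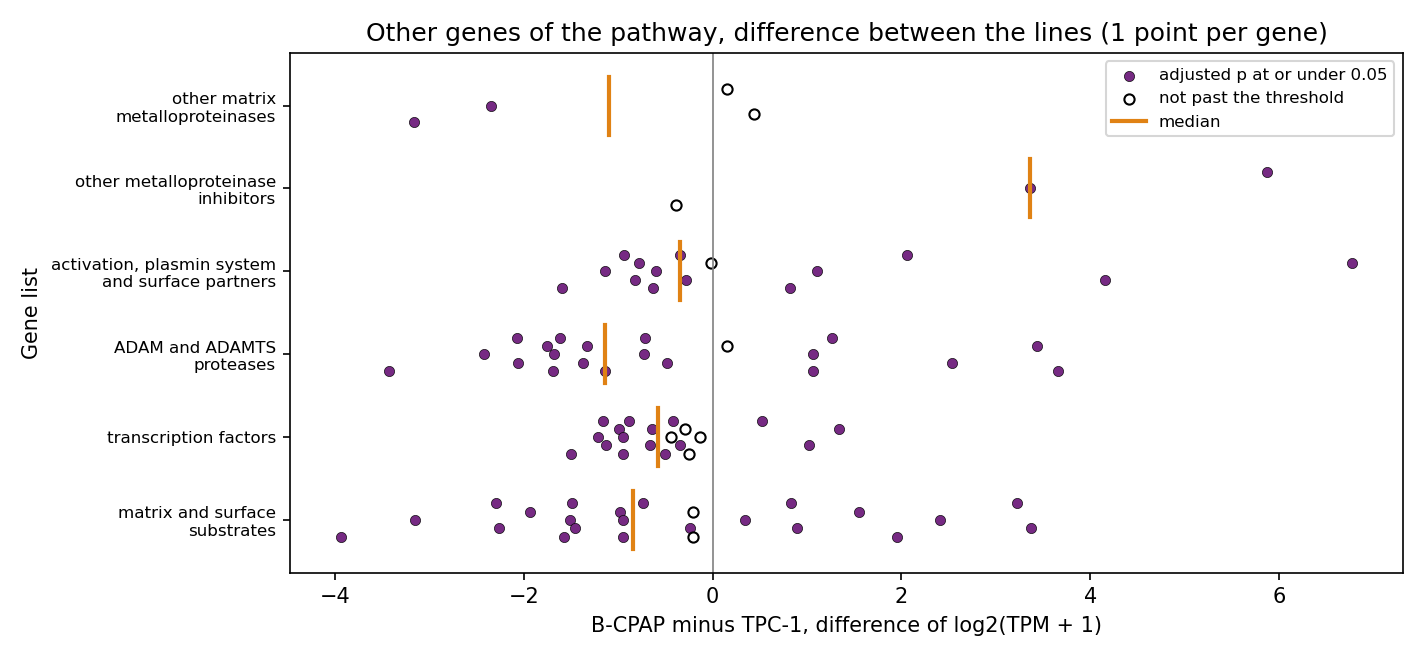
Difference between the lines, B-CPAP minus TPC-1 on the log2(TPM + 1) scale, for the 87 tested genes of the 6 other lists; each point is 1 gene, filled where the adjusted p of the limma fit is at or under 0.05, and the bar is the list's median. The medians lie at -1.10 for 4 other MMPs and 3.37 for 3 other inhibitors, too few genes for a reading of either list. Of the other MMPs and inhibitors, MMP17, MMP28 and TIMP4 passed the mean of 1 TPM only through the line where they are high. Genes of the longer lists did so too, among them SERPINB2, ADAMTS2, ADAM8 and COL3A1.

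Likeness of pattern was measured over the 4 libraries as the Euclidean distance between centred log2(TPM + 1) profiles, among 9394 protein-coding genes with a mean of at least 5 TPM. The genes nearest to TIMP1 were BSG at a distance of 0.0254, S100A11 at 0.0307 and PTOV1 at 0.0514. Those nearest to MMP14 were ABCC3 at 0.0307 and ATF6B at 0.0400, and those nearest to MMP1 were PRNP at 0.0283, LZIC at 0.0412 and UBE2K at 0.0459. TIMP3 had fewer close profiles, with MAGEB2 at 0.0924, CSAG1 at 0.280 and PTGES at 0.313. With 4 libraries such likeness describes these samples only.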

How the data were processed

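RNA-seq was run on 4 libraries. RNeasy Plus extraction and the unstranded TruSeq v2 kit were used, per the labels' protocols. The submitters' processing notes name Trimmomatic 0.38, featureCounts 2.0.0, FastQC, MultiQC and GRCh38. An aligner or annotation release was not given in the sources used here. Deposited values were TPM, made by the authors, for 58884 Ensembl IDs, of which 58611 were in GENCODE 29 (coordinates, exon lengths, GC) and 58472 had a symbol. Whole-read steps (TPM times exon length) gave depths of 23232350 and 24466576 reads in B-CPAP at 40 °C and 37 °C, and 20704722 and 22054713 in TPC-1. Of values up to 20 reads, 90.5 to 92.0% came within 0.02 of a whole read. From 20 to 200 reads 65.7 to 67.6% did, so larger counts are estimates.

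Genes averaging 1 TPM or more (14912) were fitted as log2(TPM + 1) with limma 3.58.1 (R 4.3.3), an intensity trend, 1 residual degree of freedom, two-sided tests and Benjamini-Hochberg adjustment; fold changes on this scale understate those of low genes. Fits were tested on simulated data. GC adjustment was by lowess (span 0.667). Groups came from the labels, with 1 library each; nothing says that libraries came from separate cultures, and p-values measure only the spread between these samples. The members and lists were chosen with earlier results of these data known. Named in the text are all members; of each other list, up to 4 called genes with the largest line difference, up to 2 with the largest temperature difference, and every other MMP or inhibitor reaching 1 TPM (some are given only within counts); and the 3 nearest profiles of 4 members. Alternatives were other pseudocounts, filters, scalings, GC adjustment, gene classes, limma settings, and leaving out each library. Protein sequences were not used here. Some genes that the naming rule takes are not reported.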

Additional observations from a re-analysis of the deposited data

Results flagged for a closer look

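ETV5, an ETS transcription factor of the list of factors that act on MMP genes, stood on opposite sides in the lines. It was at 44.0 (40 °C) and 48.8 TPM (37 °C) in B-CPAP, a ratio of 0.903, and at 111.5 (40 °C) and 106.4 TPM (37 °C) in TPC-1, a ratio of 1.05. Centred on the median, the log2 difference was -0.33 in B-CPAP and -0.03 in TPC-1, so that both lay below 0. Genes of the lists that the text does not name were not screened for this, and some lay on opposite sides with wider gaps. Both counting intervals of ETV5 excluded 1, each line had 1 library per temperature, and the difference between the lines was not tested.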

How the results depend on the processing

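The labels give no replicate number that groups share, so libraries were matched only by the blocks, temperature (for lines) and line (for temperatures). Without the block 7469 genes and 68 pathway genes were called between lines and 0 between temperatures (53 with an unadjusted p under 0.05). The differences between the lines of all members but MMP7 kept their sign under the pseudocounts, filters, scalings, GC adjustment and gene classes tried. MMP7 averaged under 1 TPM and was not followed. Members were not followed under other limma settings or with libraries left out. Centring on the median moved every log2 difference by -0.18 between temperatures in B-CPAP, by -0.09 in TPC-1 and by 0.13 between lines. With no filter on low values limma called 0 genes between lines (9346 with an unadjusted p under 0.05) and 0 of the other pathway genes (74), against 9349 and 76. Leaving out each library in turn gave 2911 genes without TPC-1 at 40 °C, 3014 without TPC-1 at 37 °C, 5101 without B-CPAP at 37 °C and 5719 without B-CPAP at 40 °C, and 35 to 59 pathway genes; the lone library left in a line is then assumed to vary like the others. Between temperatures, against 0 genes, 2 were called at a pseudocount of 5, 867 at a mean TPM of at least 5, 49 after centring and 1350 among protein-coding genes only. Genes 2-fold apart between temperatures numbered 519 in TPC-1 and 582 in B-CPAP. They were 987 and 1246 at a pseudocount of 0.1, 89 and 82 at a pseudocount of 5, and 1291 and 1143 with no filter. Genes averaging 5 TPM or more gave 63 and 175, and protein-coding genes only gave 18 and 137. In B-CPAP the split of higher to lower was 414 to 168, but 243 to 231 after centring, 286 to 248 after quantile normalization and 207 to 205 after GC adjustment. Members lower at 40 °C in B-CPAP numbered 5 of 8, and 3 after GC adjustment, 7 after centring and 6 after quantile normalization. Without MMP14 the ratio of proteases to inhibitors was 0.107 and 0.101 in B-CPAP at 40 °C and 37 °C and 0.247 and 0.217 in TPC-1; without TIMP1 it was 1.445 and 1.565, and 6.505 and 6.977; in estimated reads it was 0.972 and 1.002, and 2.745 and 2.633. Of the named pathway genes, which had not passed the test, log2 differences changed sign as libraries were left out, over -0.2815 to 0.5773 for MMP16, -0.3132 to 0.055 for RELA and -0.4941 to 0.0868 for COL12A1, and RELA was at 0.0002 after centring. The causes were not tested. Depth limits the members with few reads: MMP7 in all libraries, MMP9 in B-CPAP and MMP3 and TIMP3 in TPC-1 had 0 or 1 read a library, and MMP1 43 to 63.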
